A study of Mus musculus with 16 samples.

Results

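The Ikaros family comprises 5 zinc finger transcription factors, encoded by Ikzf1 (Ikaros), Ikzf2 (Helios), Ikzf3 (Aiolos), Ikzf4 (Eos) and Ikzf5 (Pegasus). Its transcripts were examined in mouse CD4+ T cells. The members were taken by gene symbol, and all 5 of them were found once each among the 53090 genes of the deposited count tables. RNA had been sequenced from naïve CD4+ T cells of the spleen (Tn), and from CD4+ T cells kept for 2 days (48 h) in Treg conditions, which were anti-CD3/CD28 antibodies with recombinant human TGF-beta and recombinant mouse IL-2. Both states were sampled in wild-type (WT) animals and in animals that lack Aim2 (Aim2-/-), which gives 4 groups of 4 libraries. Both kinds of mice were on the C57BL/6 background, and no further allele or treatment is named. The study isolated naïve cells as CD44low CD62Lhigh by magnetic selection. The ages of these mice, and whether fresh and cultured libraries came from the same animals, were not given in the sources used here. No sorting for FOXP3 after the culture is described. The Treg groups also differ from Tn in T cell receptor stimulation, in cytokines and in time in culture, and these cannot be told apart.

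Ikaros proteins bind DNA through a group of zinc fingers near their amino terminus, and they pair with each other through fingers at their carboxyl terminus. They can recruit the NuRD, Sin3 and CtBP corepressor complexes to target genes. Ikaros is needed for lymphocyte development, and Aiolos is best known in B cells and in T cells that silence Il2. Helios is abundant in Treg cells that arise in the thymus, and Eos is a partner of FOXP3 in gene repression. Pegasus is the most divergent member.

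The second zinc finger shows how closely the members are related, and where Ikzf5 departs from the others. The sequences below are the coding strand of GENCODE M21 on GRCm38, each from a single exon. Capitals mark the codons of the 2 cysteines and 2 histidines that hold the zinc ion.
Ikzf1, chr11:11754024-11754086, plus strand: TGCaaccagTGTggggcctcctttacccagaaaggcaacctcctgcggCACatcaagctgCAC
Ikzf2, chr1:69570581-69570643, minus strand: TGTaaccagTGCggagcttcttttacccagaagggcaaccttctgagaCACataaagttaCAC
Ikzf3, chr11:98488940-98489002, minus strand: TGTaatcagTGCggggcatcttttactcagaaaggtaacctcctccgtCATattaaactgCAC
Ikzf4, chr10:128640229-128640291, minus strand: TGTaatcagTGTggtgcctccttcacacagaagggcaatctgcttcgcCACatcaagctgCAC
Ikzf5, chr7:131392501-131392563, minus strand: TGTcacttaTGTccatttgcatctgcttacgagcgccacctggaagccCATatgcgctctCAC

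Between Ikzf1, Ikzf2, Ikzf3 and Ikzf4 this finger was identical in 21 of 21 amino acids, while 48 to 53 of its 63 bases were the same. The second finger of Ikzf5 shared 5 of 21 amino acids with each of them. Of the fingers that matched the spacing searched, the one nearest the carboxyl terminus was more alike between Ikzf5 and other members, and it is shown for Ikzf1 and Ikzf5. Fingers with a longer spacing between the histidines were not sought, so a further finger may follow it.
Ikzf1, chr11:11769411-11769473, plus strand: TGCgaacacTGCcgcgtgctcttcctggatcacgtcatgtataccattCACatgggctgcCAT
Ikzf5, chr7:131391739-131391801, minus strand: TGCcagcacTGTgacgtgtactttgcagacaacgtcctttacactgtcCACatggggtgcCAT

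In this finger Ikzf5 shared 13 to 14 of 21 amino acids with Ikzf1, Ikzf2 and Ikzf3, and those shared 17 to 21 among themselves; Ikzf4 was not compared here. The base differences were enough to keep the reads of the members apart. No stretch of 51 bases, the window compared here, occurred in the transcripts of more than 1 member. The main exception in assignability was Ikzf5 (chr7:131388652-131410521, minus strand). Of its 51-base windows, 81.3% were shared with other genes, and 78.3% with Pstk, which overlaps it on the opposite strand. A processed pseudogene, Gm10356, shared 12.8%. Ikzf2 shared 0.810% of its windows with an antisense gene, Gm29114, which held at most 1.04 counts in a library, and Ikzf4 shared 0.497% with 73 other genes. The library kit was stranded, but the strand setting of the counting is not given in the sources used here, so the level of Ikzf5 is uncertain.

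Depth ranged from 22516424 to 34533316 counts per library. Levels are given as CPM, the counts relative to the library's total, scaled between libraries with the TMM method. Differences were tested with the quasi-likelihood test of edgeR on the 8 libraries of each comparison, and p-values were adjusted over all genes tested by the Benjamini-Hochberg method. A gene was called when its adjusted p was under 0.05. Intervals of fold changes are 95% intervals. Nothing in the labels says more of the replicates than a number, so p-values measure the spread between these libraries.

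The knockout was visible in the libraries. Aim2 was at 32.3 to 37.9 CPM in WT Tn and 6.61 to 9.26 CPM in Aim2-/- Tn, and at 35.7 to 43.3 CPM in WT Treg and 7.17 to 10.8 CPM in Aim2-/- Treg. The T cell genes Cd3e and Cd4 were high in every group, at 195 to 394 CPM and 368 to 982 CPM. The B cell gene Ms4a1 was at 0 in all libraries. Of the 2 CD8 T cell markers, Cd8a did not exceed 0.337 CPM. The other, Cd8b1, was at 8.94 to 12.2 CPM in Tn and 1.93 to 3.88 CPM in Treg. With culture, 7 of the 8 CD4 T cell markers were called lower in WT (median log2 fold change -1.30) and 8 of 8 in Aim2-/- cells (median -1.32). Over all genes tested, 39.2% were called lower in WT (median -0.052) and 40.2% in Aim2-/- cells (median -0.036). Of 9 B cell markers, the summed level was 1.11 to 2.52 CPM in Tn and 0.371 to 1.21 CPM in Treg. The 10 myeloid markers summed to 13.7 to 21.5 CPM in Tn and 1.85 to 3.92 CPM in Treg, with Lyz2, Tyrobp, S100a8 and S100a9 at 0 in all Treg libraries. The 5 NK cell markers summed to 13.1 to 35.3 CPM in Tn and 1.33 to 6.15 CPM in Treg. The 5 markers of plasmacytoid dendritic cells summed to 54.0 to 110 CPM in Tn and 962 to 1977 CPM in Treg, of which Irf8 alone made up 926 to 1901 CPM, while Siglech was at 0.0290 CPM or less in Treg. The part of these markers in the differences between Tn and Treg was not tested.

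Ikzf1 was the most abundant member per length in each of the 4 groups. With CPM divided by the length of the gene's exons in kb, it was at 139 ± 11.1 CPM per kb in WT Tn (SD, n = 4) and 139 ± 12 in Aim2-/- Tn. The other members lay far lower in WT Tn. Ikzf5 followed at 9.32 ± 2.93 CPM per kb and Ikzf3 at 8.41 ± 1.21, and these neighbours overlapped. Ikzf4 was at 1.08 ± 0.287 and Ikzf2 at 0.261 ± 0.0394 CPM per kb, and neither overlapped with a neighbour. The order was the same in Aim2-/- Tn. When the longest transcript was used as the length, Ikzf3 stood above Ikzf5.

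After culture the order of the lesser members was different. In WT Treg, Ikzf1 was at 67.8 ± 7.75 CPM per kb, followed by Ikzf4 at 16.1 ± 3.81 and Ikzf3 at 14.2 ± 1.98. The latter pair overlapped, and their order was the opposite in Aim2-/- Treg, where Ikzf3 was at 15.8 ± 1.68 and Ikzf4 at 14.1 ± 3.25 CPM per kb. Ikzf5 came next at 5.78 ± 0.189 CPM per kb in WT Treg, and Ikzf2 remained last at 0.589 ± 0.458.

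The make-up of the family therefore differed between the states, in both genotypes. Of the summed level per kb of the 5 members, Ikzf1 held 88.0% ± 0.402 in WT Tn and 64.8% ± 2.08 in WT Treg (SD, n = 4). The share of Ikzf4 was 0.674% ± 0.127 in WT Tn and 15.3% ± 2.32 in WT Treg. The share of Ikzf3 was 5.38% ± 1.18 and 13.7% ± 2.66. Without Aim2, Ikzf1 held 89.2% ± 0.826 in Tn and 64.2% ± 2.47 in Treg. The share of Ikzf5 stayed between 4.53% and 7.04% across all libraries. The summed level itself was 158 ± 13.2 CPM per kb in WT Tn and 104 ± 10.4 in WT Treg. These shares are descriptions and depend on the lengths used: with the longest transcripts, Ikzf3 held 20.9% in WT Treg, above the 14.3% of Ikzf4.

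**Figure D1:**
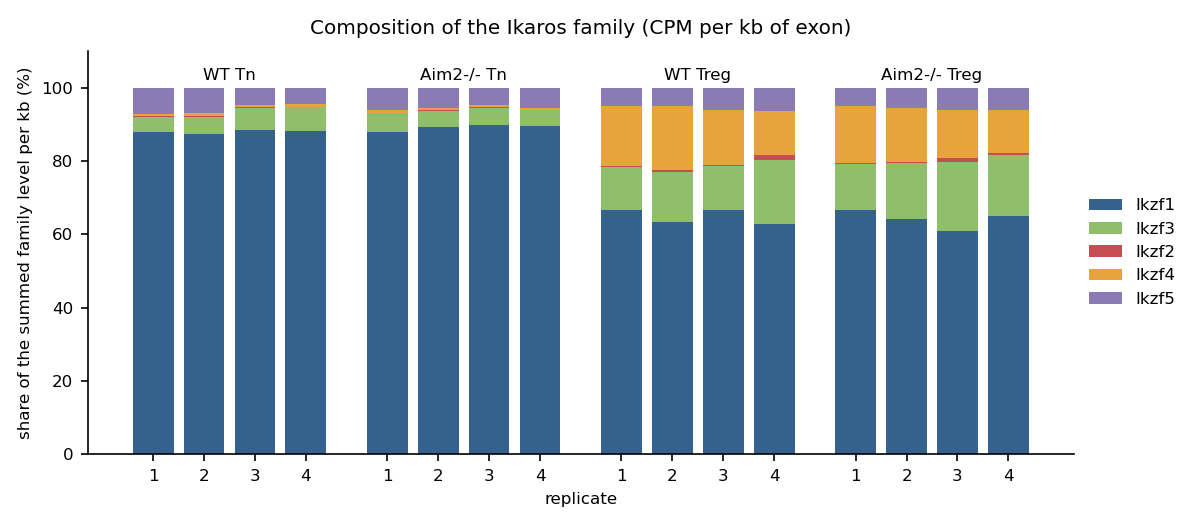
Each bar is 1 library (replicates 1 to 4 of the 4 groups), and its segments are the percentages of the summed CPM per kb of exon held by the 5 members. Ikzf1 takes 87.4% to 89.8% in the Tn bars and 60.9% to 66.7% in the Treg bars, where Ikzf4 and Ikzf3 are wider.

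All 5 members differed between WT Treg and WT Tn, with 3 higher and 2 lower in Treg. Culture changed most of the transcriptome: edgeR called 76.9% of the 13675 genes tested in WT cells, 37.7% higher and 39.2% lower. In Aim2-/- cells it called 79.3% of 13713 genes, 39.1% higher and 40.2% lower. The same 3 members were higher and the same 2 lower there. A call alone therefore says little about a member, and the size of each change is given with the percentage of genes that changed more.

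Ikzf4 (Eos, chr10:128630843-128645991, minus strand) had the largest change of the family. In WT Tn its 4 libraries were at 6.91, 8.70, 4.94 and 5.28 CPM, and in WT Treg at 114, 116, 88.8 and 67.9 CPM. Its Aim2-/- libraries were at 8.47, 5.26, 4.54 and 5.68 CPM in Tn, and at 105, 97.3, 73.6 and 63.4 CPM in Treg. The states were far apart, since the lowest Treg library was at 63.4 CPM and the highest Tn library at 8.70 CPM. Ikzf4 was 14.7-fold higher in WT Treg (interval 10.1 to 21.3; adjusted p = 3.9e-07, edgeR), and 6.90% of the genes tested had a larger change. It was 14.1-fold higher in Aim2-/- cells (interval 9.89 to 20.0; adjusted p = 9.1e-08).

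Ikzf1 (Ikaros, chr11:11685003-11772926, plus strand) was lower after culture. The WT Tn libraries were at 850, 867, 756 and 742 CPM, and those of WT Treg at 445, 403, 380 and 338 CPM. The Aim2-/- Tn libraries were at 901, 797, 737 and 787 CPM, and those of Aim2-/- Treg at 435, 415, 329 and 339 CPM. The states did not overlap in either genotype. Ikzf1 was 2.10-fold lower in WT Treg (interval 1.80 to 2.44; adjusted p = 4.6e-06, edgeR) and 2.14-fold lower in Aim2-/- Treg (interval 1.80 to 2.54; adjusted p = 3.1e-06). In WT cells 44.8% of genes changed more. As in all comparisons of bulk RNA, fewer cells that express a gene and less RNA of it per cell cannot be told apart. CPM are relative to the library's total, so a difference in total RNA per cell cannot be told apart from these either.

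Ikzf3 (Aiolos, chr11:98464902-98546031, minus strand) was higher after culture. In WT Tn it was at 60.3, 70.0, 80.2 and 83.8 CPM, and in WT Treg at 119, 132, 102 and 142 CPM. In Aim2-/- Tn it was at 79.9, 59.4, 57.9 and 56.4 CPM, and in Aim2-/- Treg at 123, 147, 155 and 130 CPM. Each Treg library was above each Tn library. Ikzf3 rose 1.65-fold in WT cells (interval 1.35 to 2.02; adjusted p = 0.00054, edgeR) and 2.17-fold in Aim2-/- cells (interval 1.80 to 2.62; adjusted p = 5.8e-06). In WT cells 59.5% of the genes tested changed more than Ikzf3.

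Ikzf2 (Helios, chr1:69531214-69687245, minus strand) was scarce in all groups, and its counts ranged from 69 to 396 per library. It was at 2.69, 2.73, 3.04 and 3.68 CPM in WT Tn, and at 3.61, 5.67, 3.41 and 14.7 CPM in WT Treg. In Aim2-/- cells it was at 3.37, 2.77, 3.60 and 2.66 CPM in Tn, and at 4.56, 6.68, 11.6 and 6.76 CPM in Treg. In WT cells the states overlapped, and replicate 4 of WT Treg stood above the rest, whereas in Aim2-/- cells they did not overlap. The 2.19-fold rise in WT cells was just past the threshold (interval 1.09 to 4.43; adjusted p = 0.043, edgeR), and 42.4% of the genes tested changed more. Leaving out that replicate gave a log2 fold change of 0.49 (adjusted p = 0.081) against 1.13 with it, and the call was lost on leaving out 6 of the 8 libraries in turn. The 2.38-fold rise in Aim2-/- cells (interval 1.59 to 3.54; adjusted p = 0.00098) kept its call in all 8.

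Ikzf5 (Pegasus) was lower after culture. Its WT Tn libraries were at 67.4, 68.3, 39.9 and 37.8 CPM, and its WT Treg libraries at 32.5, 32.1, 34.6 and 33.1 CPM. The Aim2-/- libraries were at 60.4, 48.9, 39.3 and 47.0 CPM in Tn, and at 31.9, 35.9, 32.6 and 31.4 CPM in Treg. The states did not overlap, but replicates 1 and 2 of WT Tn were well above replicates 3 and 4, while the Treg libraries lay close together. Other genes also parted these WT Tn libraries. The 7 naïve T cell markers summed to 5971 and 6191 CPM in replicates 1 and 2, against 4536 and 4485 CPM. The 7 Treg markers summed to 134 and 138 against 64.5 and 68.8 CPM, and among them Ctla4 ranged from 12.8 to 80.0 CPM. Foxp3 went the other way, at 2.00 and 1.98 against 2.96 and 4.02 CPM, so the sum is no measure of Treg content. The CD4 T cell markers did not part them, at 4373 to 4621 CPM. The part of this split in the Ikzf5 values was not tested. The level of Ikzf5 was 1.65-fold lower in WT Treg (interval 1.21 to 2.25; adjusted p = 0.0076, edgeR), and 59.5% of the genes tested changed more. The log2 fold change was -1.06 within replicates 1 and 2 and -0.24 within replicates 3 and 4. It was 1.49-fold lower in Aim2-/- Treg (interval 1.24 to 1.80; adjusted p = 0.0010). Pstk, with which Ikzf5 shares sequence on the other strand, was at 19.3 ± 1.22 CPM in WT Tn and 12.2 ± 1.26 in WT Treg (SD, n = 4), and its part in the Ikzf5 counts was not tested.

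**Figure D2:**
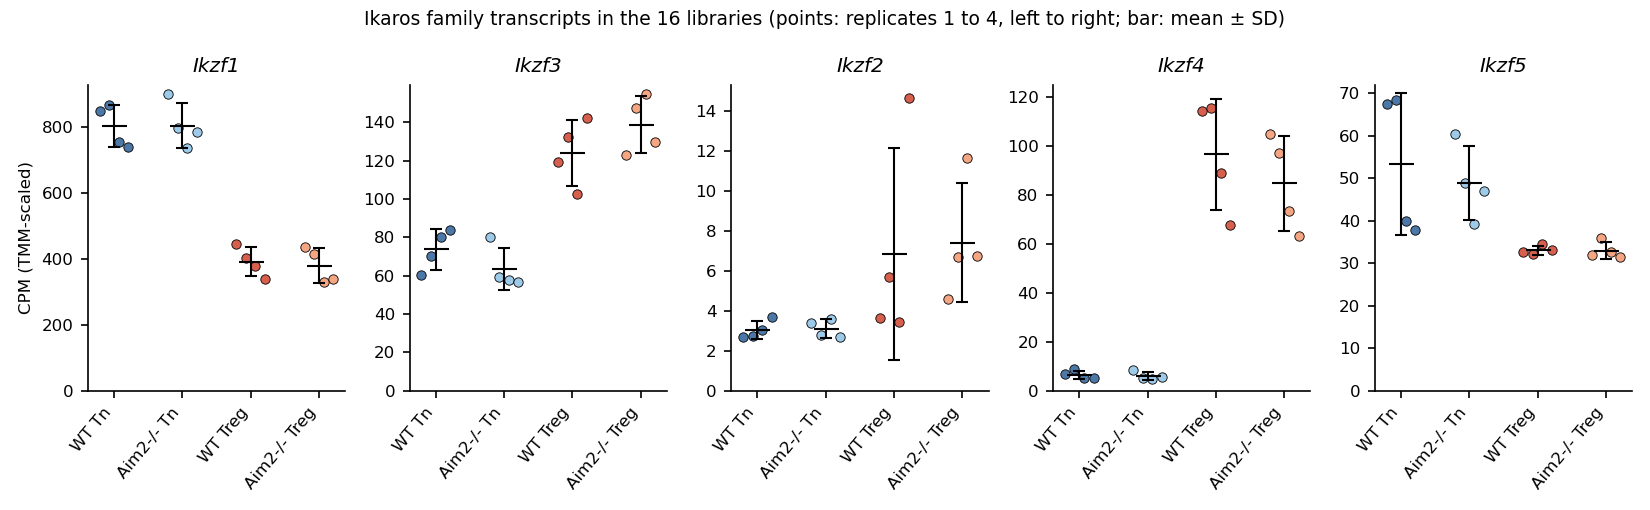
CPM of each member by group, with 1 point for each of the 4 libraries (replicates 1 to 4 from left to right) and the mean with its SD as a black bar; each panel has its own axis from 0. Ikzf4, Ikzf3 and, less evenly, Ikzf2 are higher in Treg, Ikzf1 and Ikzf5 are lower, and WT and Aim2-/- points overlap within each state.

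Loss of Aim2 moved none of the 5 members past the threshold in either state. In Tn cells edgeR called 31 of 13441 genes (0.231%), and 6.95% of genes had libraries of the genotypes that did not overlap. The count among the members was 0 on both measures, and 0 of them had an unadjusted p under 0.05, against 1389 of all genes tested. In Treg cells 29 of 13221 genes were called (0.219%), and 2.26% did not overlap. Again 0 of 5 members were called, 0 had libraries that did not overlap, and 0 had an unadjusted p under 0.05. Of all genes tested in Treg, 304 had an unadjusted p under 0.05. With limma-voom and DESeq2 the count was 0 of 5 in both states as well. The 6 erythroid markers summed to 1.23 to 3.97 CPM in WT Tn and 5.28 to 7.94 CPM in Aim2-/- Tn. Of the 4 of them tested there, edgeR called 0 and 3 had an unadjusted p under 0.05, and their part in these values was not tested.

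The intervals give the precision behind these values. For Ikzf1 the log2 fold change of Aim2-/- against WT was 0.0095 in Tn (interval -0.21 to 0.23) and -0.051 in Treg (interval -0.31 to 0.20). Ikzf5 was as tightly bounded in Treg, at -0.010 (interval -0.15 to 0.13), but not in Tn, where it was -0.12 (interval -0.62 to 0.38). For Ikzf4 the values were -0.10 (interval -0.63 to 0.43) and -0.19 (interval -0.67 to 0.28). The least precise was Ikzf2, at 0.035 in Tn (interval -0.38 to 0.45) and 0.12 in Treg (interval -1.0 to 1.23), so a rise of up to 2.34-fold lay within the interval for Helios in cultured cells.

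Ikzf3 had the largest genotype difference of the family in Tn cells, at -0.21 on the log2 scale (interval -0.52 to 0.10; adjusted p = 0.62, edgeR). In Aim2-/- Tn, replicate 1 was at 79.9 CPM and the other 3 at 56.4 to 59.4 CPM, while the WT libraries spanned 60.3 to 83.8 CPM. Only replicate 1 lay within the WT range. The value was 0.11 within replicates 1 and 2 (adjusted p = 0.75) and -0.53 within replicates 3 and 4 (adjusted p = 0.021), so it differed in sign between these pairs of replicates. In Treg cells the log2 fold change of Ikzf3 was 0.16 (interval -0.093 to 0.40; adjusted p = 1.0).

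Whether the change with culture differed between genotypes was tested as an interaction term over all 16 libraries. edgeR called 3 of 14669 genes (0.0205%), 0 of which were members. An unadjusted p under 0.05 was held by 0 members and by 512 of all genes tested. The largest interaction was that of Ikzf3, at 0.38 on the log2 scale (interval -0.021 to 0.77; adjusted p = 1), which reflects a rise of 0.72 in WT and 1.12 in Aim2-/- cells. It was 0.0098 within replicates 1 and 2 and 0.75 within replicates 3 and 4 (adjusted p = 0.38). The other members had interactions between -0.079 and 0.12. The interval of the interaction included 0 for all 5 members.

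**Figure D3:**
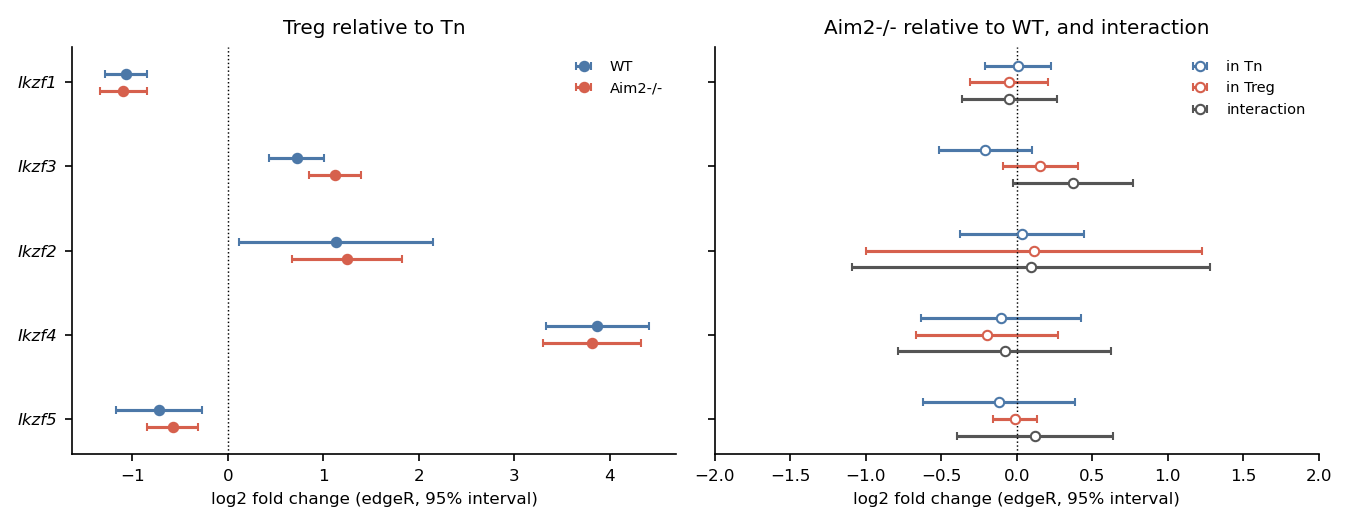
log2 fold changes of the 5 members with their 95% intervals, for Treg against Tn in each genotype (left) and for Aim2-/- against WT in each state with the interaction (right); filled points were called by edgeR and open points were not. The culture changes run from -1.10 to 3.87, and the intervals of genotype and interaction all include 0.

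The cultured libraries were uneven in Foxp3, and Ikzf4 and Ikzf2 were highest in different libraries. Foxp3, which defines Treg cells, was at 560, 573, 496 and 278 CPM in replicates 1 to 4 of WT Treg, and at 560, 523, 329 and 288 CPM in Aim2-/- Treg. Some other Treg markers were more even, such as Il2ra at 1300 to 1512 CPM and Gpr83 at 49.7 to 65.2 CPM. Lrrc32 was not, at 11.6 to 40.1 CPM in WT Treg and 9.10 to 32.1 CPM in Aim2-/- Treg. The 7 Treg markers summed to 1792 to 2328 CPM, and most of that sum was Il2ra. Ikzf4 ranked the libraries within each genotype in the same order as Foxp3, from replicate 2 down to replicate 4 in WT and from replicate 1 down to replicate 4 in Aim2-/-. Ikzf2 did not. Its highest library was replicate 4 in WT, where Foxp3 was lowest, and replicate 3 in Aim2-/-. The same libraries were the highest in Ikzf3. Ikzf1 was highest in replicate 1 of both genotypes, and lowest in replicate 4 of WT and replicate 3 of Aim2-/-. Like Ikzf4, it was lower in the libraries with Foxp3 of 278 to 329 CPM (Ikzf1 at 329 to 339 CPM). In the other cultured libraries Ikzf1 was at 380 to 445 CPM. Ikzf5 was highest in replicate 3 of WT and replicate 2 of Aim2-/-.

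Tbx21, which encodes the Th1 factor T-bet, was also uneven. It was at 14.7, 49.8, 18.8 and 127 CPM in WT Treg and at 19.3, 75.3, 134 and 137 CPM in Aim2-/- Treg. The libraries highest in Ikzf2 were among the 3 highest in Tbx21, but replicate 4 of Aim2-/- Treg, the highest of all in Tbx21, held Ikzf2 at 6.76 CPM, close to the 6.68 CPM of replicate 2. Ifng, the main Th1 cytokine gene, was at 1.15, 4.49, 0.936 and 20.7 CPM in WT Treg and at 2.41, 6.57, 13.6 and 25.4 CPM in Aim2-/- Treg. Its highest library was replicate 4 in both genotypes, which was the highest in Ikzf2 only in WT. The NK cell markers summed to 6.15 CPM in that library, of which Eomes gave 6.08 CPM, while Ncr1 and Klra8 were at 0. Whether these cultures held another mix of cells, or the same cells in another state, was not tested, and no relation across these 8 libraries was tested.

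**Figure D4:**
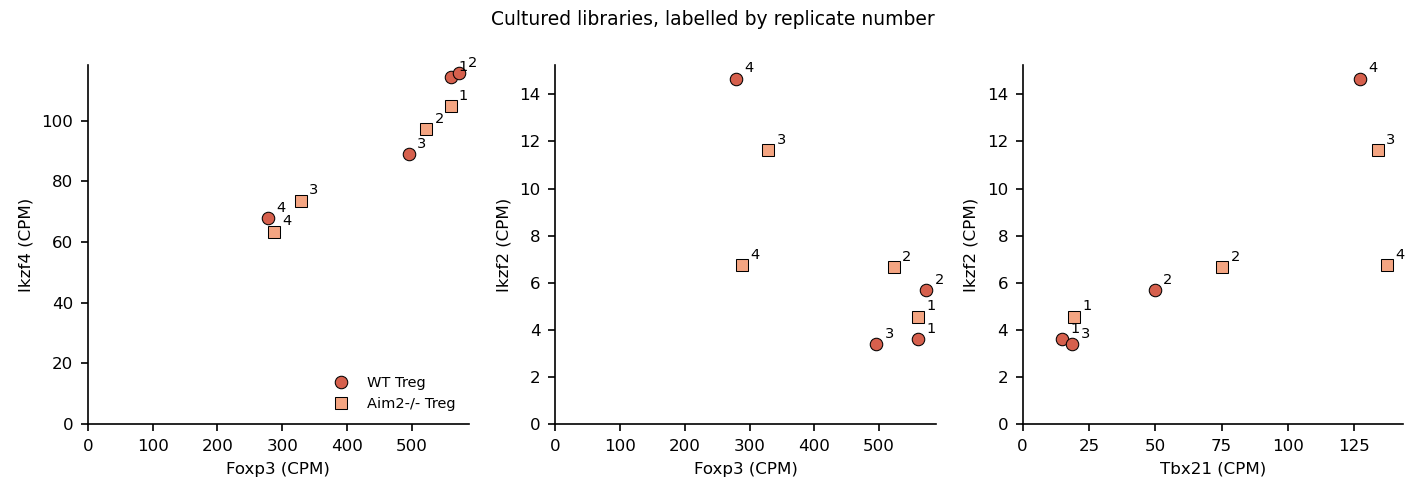
CPM of Ikzf4 against Foxp3, of Ikzf2 against Foxp3 and of Ikzf2 against Tbx21 in the 8 cultured libraries (circles, WT; squares, Aim2-/-; numbers, replicates). Ikzf4 is 63.4 to 73.6 CPM in the 3 libraries with Foxp3 of 278 to 329 CPM and 88.8 to 116 CPM in the other 5, and Ikzf2 is highest, at 14.7 and 11.6 CPM, in libraries with Tbx21 of 127 and 134 CPM, while the library with the highest Tbx21 (137 CPM) has Ikzf2 at 6.76 CPM.

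Genes through which Ikaros proteins act are set beside all genes tested, of which 76.9% were called in WT culture, 37.7% higher and 39.2% lower. Of 17 corepressor genes, 16 were tested, and in WT cells 9 were higher, 4 lower and 3 not called. Their median log2 fold change was 0.29, against -0.052 over all genes tested. Rbbp7, a histone-binding subunit of NuRD, went from 108 ± 6.69 to 459 ± 5.69 CPM (SD, n = 4; log2 fold change 2.05, SE 0.066). Rbbp4, its close relative, rose by 0.87 (SE 0.092) and the deacetylase Hdac1 by 0.87 (SE 0.12). Chd3, the NuRD helicase also called Mi-2 alpha, fell from 1074 ± 130 to 590 ± 96.9 CPM (log2 fold change -0.90, SE 0.12). All 4 passed the threshold in edgeR.

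Of 11 genes for kinases, phosphatases and ubiquitin ligase subunits that act on Ikaros proteins, 9 were higher, 1 lower and 1 not called in WT Treg, with a median log2 fold change of 0.51 against -0.052 over all genes tested. Over all genes, 37.7% were higher and 39.2% lower. Ddb1, an adaptor of the CRL4 ubiquitin ligase, had the largest change (1.37, SE 0.054), from 273 ± 8.63 to 722 ± 14.1 CPM. Csnk2b, the regulatory subunit of casein kinase 2, rose by 0.94 (SE 0.067), and Ppp1cc, a catalytic subunit of protein phosphatase 1, by 0.84 (SE 0.11). Crbn, the substrate receptor through which lenalidomide directs human Ikaros and Aiolos to degradation, was the gene that fell (-0.81, SE 0.20), from 61.5 ± 17.5 to 35.9 ± 5.08 CPM.

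Genes reported as targets of the family were split between the directions. Of 12 listed, 9 were tested in WT cells, and 3 were higher, 5 lower and 1 not called, with a median log2 fold change of -0.70, where 76.9% of all genes were called. Il2ra, the alpha chain of the IL-2 receptor, was at 2.66 to 4.16 CPM in WT Tn and 1378 to 1512 CPM in WT Treg. Foxp3 was at 1.98 to 4.02 CPM in WT Tn, and its log2 fold change was 7.41 (SE 0.35). Tbx21 rose by 4.10 (SE 0.72). Dtx1, a Notch pathway gene, went the other way, from 181 to 229 CPM in WT Tn to 1.74 to 2.33 CPM in WT Treg (log2 fold change -6.56, SE 0.13).

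Among 22 Treg-associated genes, 20 were tested in WT cells, and 16 were higher, 1 lower and 3 not called (median log2 fold change 3.52), where 37.7% of all genes were higher and 39.2% lower. Besides Il2ra and Foxp3, the largest changes were those of Nrp1, a surface receptor (6.19, SE 0.44), and Lrrc32, which encodes the TGF-beta docking receptor GARP (5.44, SE 0.47). Lrrc32 was at 11.6 to 40.1 CPM in WT Treg and 9.10 to 32.1 CPM in Aim2-/- Treg. In Aim2-/- cells the counts of genes higher and lower were 9 and 4 of 16 corepressors tested and 10 and 1 of 11 enzymes. They were 4 and 5 of 10 targets and 16 and 2 of 21 Treg-associated genes. Over all genes tested in those cells, 39.1% were higher and 40.2% lower. In the genotype and interaction comparisons, edgeR called 0 genes of these 4 lists, and 0 to 2 genes of a list had an unadjusted p under 0.05. Over all genes tested, it called 0.231% in Tn, 0.219% in Treg and 0.0205% for the interaction. An unadjusted p under 0.05 was held by 1389 of 13441, 304 of 13221 and 512 of 14669 genes.

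**Figure D5:**
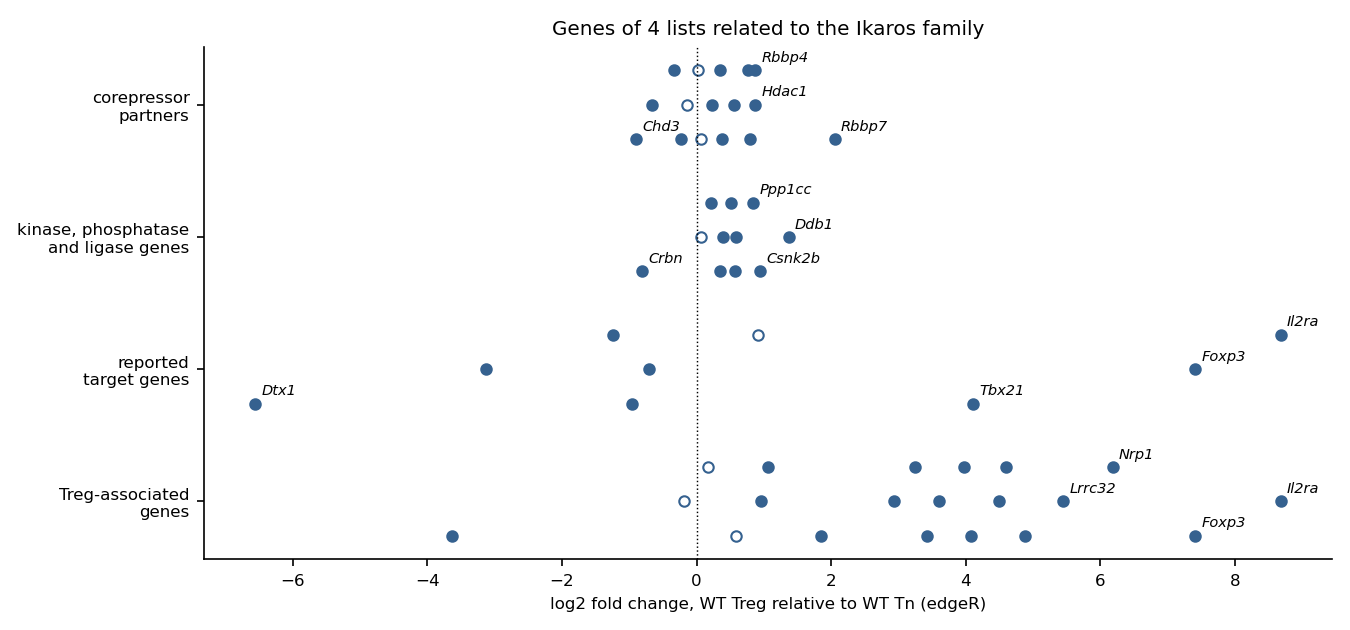
log2 fold changes of WT Treg against WT Tn for the tested genes of the 4 lists, with 1 point per gene, filled where called by edgeR and open where not; vertical offsets within a list only separate the points. Named genes have the largest called changes of their list, from -6.56 for Dtx1 to 8.68 for Il2ra, while the corepressor and enzyme genes lie within -0.90 and 2.05.

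For each member, the genes with the most similar profile were sought among 10469 genes over the 16 libraries, as the root mean square difference in log2 CPM after each gene was centred on its own mean. For Ikzf4 these were Cish (0.15), Slc39a8 (0.23) and Brip1 (0.25), where the median gene differed by 1.95. For Ikzf1 they were Cnppd1 (0.081), Nfrkb (0.082) and Itpk1 (0.085), with a median of 0.69. Ikzf3 was nearest to Tex2 (0.13), Ap2a1 (0.15) and Hnrnpul1 (0.16), and Ikzf5 to Wac (0.10), Cbll1 (0.10) and Poldip3 (0.11). Ikzf2 had no neighbour as close, the nearest being Gbp2 (0.29), Psph (0.34) and Ggta1 (0.34), with a median of 0.80. Its counts were only 69 to 396 per library, and the part of these low counts in its distances was not tested. The profiles include the difference between Tn and Treg, which 76.9% of genes showed in WT cells, and how much of the likeness comes from it was not tested.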

How the data were processed

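The authors made stranded mRNA libraries from 16 samples, aligned the single-end reads with STAR (GRCm38), and used RSEM with a GENCODE annotation for the quantification. They deposited expected counts per gene, neither normalized nor filtered. The strand setting and tool versions are not given in the sources used here. Groups and replicate numbers came from the sample titles. The deposited tables carry other numbers for some libraries, so results by replicate number depend on the titles. Expected counts were rounded. A gene entered a test if 4 or more of the compared libraries held 10 or more counts. The test was edgeR's quasi-likelihood F test (version 4.0.16, two-sided, robust, with TMM scaling and a threshold of 0.05), with all 16 libraries for the interaction. The reported differences rest on 22516424 to 34533316 counts per library. Lengths and coordinates came from GENCODE M21, which held 98.71% of the genes. Fingers were found by their cysteine and histidine spacing in the translated coding sequence. Members and lists were chosen with earlier results of these data known. From each list, the 4 genes with the largest change among called genes with non-overlapping libraries in WT culture were named, with any gene called for genotype or interaction, and for each member the 3 most similar profiles. Alternatives were limma-voom 3.58.1, DESeq2 1.42.0, other scalings, filters, subsets, blocks and a GC and length correction. The fits were tested on simulated data, and intervals cover the spread between these libraries.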

Additional observations from a re-analysis of the deposited data

Results flagged for a closer look

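Ikzf3 in replicate 1 of Aim2-/- Tn was at 79.9 CPM, far from the other 3 libraries of its group (56.4 to 59.4 CPM). Its gap to the nearest of them was 0.87 of the group's range, above the 95% critical value of Dixon's test for 4 samples. This was 1 of 20 sets of libraries examined (5 members in 4 groups), and chance marks about 1 in 20.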

How the results depend on the processing

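The culture changes of Ikzf1, Ikzf3, Ikzf4 and Ikzf5 kept their direction and call in both genotypes under all 21 alternatives each, as did that of Ikzf2 in Aim2-/- cells. The rise of Ikzf2 in WT cells lost its call with limma-voom (0.84), with no filter (1.18), in replicates 3 and 4 only (1.37), with the GC and length correction (1.03) and with that correction plus the replicate block (0.79). Leaving out 1 library gave 0.49 (without replicate 4 of WT Treg) to 1.40.

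For genotype, calls of all genes in Tn numbered 127 with DESeq2, 47 with no filter, 18 with 10 counts in every library, 58 with all 16 libraries in one fit, 51 with a covariate parting replicates 1 and 2 from 3 and 4, 15 and 516 in replicates 1 and 2 or 3 and 4 only, and 17 to 28 without 1 library. In Treg they were 52 with DESeq2, 17 with 10 counts in every library, 15 and 4 in those pairs, and 10 to 17 without 1 library. The interaction gave 10 with DESeq2, 0 with 10 counts in every library, 1 with the replicate block (also with the correction), and 2 to 5 without 1 library; with the usual filter edgeR gave 512 genes an unadjusted p under 0.05. A member was called for genotype under 1 alternative: Ikzf3 in replicates 3 and 4 of Tn (-0.53), against 0.11 in replicates 1 and 2.

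The other members' genotype values kept their sign under most alternatives, apart from Ikzf1 in Tn. In Tn the sign turned under 10 (Ikzf1), 5 (Ikzf2), 2 (Ikzf4) and 3 (Ikzf5) of 21 alternatives. In Treg it turned under 4 (Ikzf1), 3 (Ikzf2), 0 (Ikzf4) and 6 (Ikzf5) of 21. Ikzf4 in Treg stayed between -0.33 and -0.074 on leaving out 1 library. The values that turned are given next. Ikzf1 in Tn was -0.0078 with RLE factors, -0.0070 with library totals, -0.0078 with DESeq2, -0.011 with no filter, -0.00036 with 10 counts in every library, -0.0081 in one fit and -0.0029 in replicates 1 and 2. Replicates 3 and 4 gave -0.12 for Ikzf2 and 0.14 for Ikzf5 in Tn. In Treg, replicates 1 and 2 gave 0.0012 for Ikzf1 and 0.070 for Ikzf5, and Ikzf5 was 0.024 with the GC and length correction and 0.022 with the block added. The interaction was 0.019 for Ikzf1 and 0.0063 for Ikzf4 in replicates 1 and 2, and -0.22 for Ikzf5 in replicates 3 and 4. Leaving out 1 library gave, in Tn, -0.054 to 0.054 for Ikzf1, -0.040 to 0.13 for Ikzf2, -0.32 to 0.073 for Ikzf4 and -0.26 to 0.022 for Ikzf5. In Treg it gave -0.12 to 0.020 for Ikzf1, -0.19 to 0.80 for Ikzf2 and -0.051 to 0.017 for Ikzf5. For the interaction it gave -0.12 to 0.032 for Ikzf1, -0.20 to 0.79 for Ikzf2, -0.25 to 0.12 for Ikzf4 and -0.024 to 0.26 for Ikzf5. The culture value of Aim2 in WT turned to -0.11 with the correction (-0.11 with the block), and its interaction to -0.096 in replicates 3 and 4. The cause of these shifts was not tested.

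With the replicate block, same-numbered libraries were treated as pairs. Their deviations correlated at a mean of 0.16 in Tn and 0.30 in Treg between genotypes, and at 0.039 in WT and 0.023 in Aim2-/- between states, and not every pair exceeded 0.1, so the numbers were not taken to pair the libraries. The block changed no call of a member (Ikzf4 in WT culture 3.87, Ikzf2 0.90, Ikzf3 in Tn -0.21).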
